A study of Bos taurus with 8 samples.

Results

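The 150 genes described here are those whose probes gave the brightest spots in control bovine blastocysts, once ribosomal protein genes and several other large families were set aside. Every probe was ranked within each array by its signal in the control channel, the mean spot intensity minus the median local background, with rank 1 for the brightest of 43794 probes. Ranks were averaged over 8 arrays, the probe of best mean rank stood for each named gene, and the first 150 genes were taken. Symbols beginning with LOC, RPL, RPS, EIF, PSM, NDUF, COX, ATP5, KRT, ACT, HSP or IFN were left out. The 150 are 1.08% of the 13938 genes that the rule could have chosen, of 15229 symbols on the array. Because control signal chose them, their ranks and brightness in control pools are given as a description, with no test.

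A blastocyst is the hollow embryo that has formed an outer epithelium, the trophectoderm, around an inner cell mass. Its cells divide fast, pump ions to fill the cavity, are sealed by tight junctions and take up nutrients from the medium, so housekeeping and epithelial genes are both active. Glucose is used sparingly by the early cleaving embryo and more heavily from compaction onward, and an excess during cleavage is known to disturb later development in culture.

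The glucose embryos were kept in 5 mM glucose from day 0 to day 3, and the control embryos in 0.2 mM over the same days. All came from slaughterhouse ovaries of dairy cattle by in vitro maturation, fertilization and culture, moved to the usual culture medium afterwards and were collected as blastocysts at 180 h, counted from fertilization. RNA came from 4 pools per group with 10 embryos in each, and each array compared a glucose pool with a control pool in 2 dyes, Cy5 and Cy3, which were exchanged between the 2 arrays of a replicate. A pool mixes embryos of unstated sex and lineage makeup, so fewer cells of a type and less RNA per cell cannot be told apart. No value here belongs to a single embryo.

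The bright end of the array held more than the 150 genes. Down to the last of them the ranking ran through 569 probes. These were the 150 probes themselves, 9 second probes of the same genes, 257 probes with no symbol in the annotation used, and 153 probes of the families set aside, among them 66 with a LOC symbol, 37 RPL and 18 RPS. All 150 probes exceeded the negative control spots in all 16 channels. The median control signal of the 150 lay between 14328 and 34853 intensity units, against a median of 135 over all probes. Though they were 0.343% of probes, they held 6.99% to 9.75% of the summed signal of a glucose channel and 7.18% to 10.3% of that of a control channel. The ranking sets spots of different probe sequences side by side, so a rank is an order of spot brightness and not of transcript number.

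Among the genes eligible by the rule, PDIA6 had the best mean rank in the control channels and stood at place 5 in the glucose channels. It is a disulphide isomerase that helps proteins fold in the endoplasmic reticulum. Its pools of replicates 1 to 4 ranked 126, 108, 129 and 24 in glucose, against 60.5, 56, 60.5 and 92 in control, each the mean of both dyes. GLRXL, the array's name for the glutaredoxin gene GLRX, followed with a mean rank of 128 in glucose and 73.9 in control. TXNRD1, thioredoxin reductase, had 136.5 in glucose and 75.9 in control. Both enzymes keep protein thiols reduced. RBX1, the RING subunit of cullin ubiquitin ligases, had mean ranks of 104 in glucose and 84.5 in control. PPIA, the prolyl isomerase cyclophilin A, had 82.1 in glucose and 85.6 in control. GLRXL was also the only gene of the 150 with a channel at the scanner's ceiling by its median pixel. By mean intensity the brightest probe on any array reached 41757.5 units in Cy5, and PDIA6 came close, at 40448 in a glucose channel. With spots at the ceiling left out, the median log2 ratio of glucose over control was -0.03 over the 149 genes left, and -0.03 over all 150. What brightness short of the ceiling does to the ratios was not tested.

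CYCS (cytochrome c of the respiratory chain), FN1 (the matrix protein fibronectin), TPT1 (translationally controlled tumour protein), SLC2A3 (the high-affinity glucose transporter) and VAT1 completed the first 10. FN1 had the best mean rank of all the named genes eligible in the glucose channels, 76.5, against 102 in the control channels. Its glucose pools ranked 156.5, 41, 48 and 60.5, against control pools at 10, 97, 108.5 and 193, so replicate 1 ran the other way from the rest. SLC2A3 had glucose pools at 93.5, 88, 123 and 36, against control pools at 96.5, 134.5, 111.5 and 104.5. The glucose pools of SLC2A3 had the better rank in 3 of 4 replicates, and the 2 groups overlapped. After normalization its log2 ratios of glucose over control were -0.18, -0.07, 0.07 and 0.02 in replicates 1 to 4. Rank and ratio thus ran opposite ways in replicates 1 to 3. Its signal ran from 20221 through a median of 35046 to 39551 units over the 8 glucose channels, and from 20518 through 32806 to 37890 over the 8 control channels.

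The next 20 positions spanned mean control ranks from 134 to 204. They held cytoskeletal genes, namely the alpha-tubulin TUBA1A, the myosin light chain MYL6 and the tropomyosin TPM4, and S100A10, the partner of annexin A2 under the plasma membrane. Protein synthesis was represented by the elongation factor EEF1A1, the termination factor GSPT1 and the poly(A)-binding protein PABPC1. Membrane traffic and transport had the clathrin adaptor AP2M1, the coat-recruiting GTPase ARF1 and the sodium pump subunit ATP1B3. CTNNA1, alpha-catenin of the adherens junction, GNAS, the stimulatory G protein, and the adaptor YWHAQ were in the same stretch. So were IDH1, which makes cytosolic NADPH, CKB, which buffers ATP through creatine phosphate, the cathepsin inhibitor CSTB, the RNA-binding protein HNRNPA3, the phosphatase PTP4A2, ZFAND1 and PTTG1IP.

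All 150 genes were sorted by role after they were known, so the groups carry no test. The largest group was energy metabolism and mitochondria with 22 genes, whose best control rank was CYCS at 101. It included the tricarboxylic acid enzyme CS, the cytosolic malate dehydrogenase MDH1, the pyruvate carrier BRP44L (current symbol MPC1) and the pyruvate dehydrogenase subunit PDHB. Also in the group were the outer-membrane channel VDAC2, the ATP/ADP carrier SLC25A5, the lactate enzyme LDHB and the lactate carrier SLC16A1. RNA binding and splicing held 19 genes, from HNRNPA3 at 169 down to the splicing factor SF3B1 at 575. Cytoskeleton and its regulators also held 19, membrane traffic, lysosome and ion transport 15, and protein synthesis and ribosome assembly 15, including 3 mitochondrial ribosomal genes that the excluded prefixes did not cover. Chromatin, nucleus and cell cycle held 11 genes, protein folding and degradation 9, adhesion and epithelial surface 9, redox and metal handling 8, signalling 7 and sterol and lipid metabolism 4. No role was assigned to 12 genes.

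A second view came from lists of textbook members, by the share of each list on the array that fell among the 150, beside the 1.08% of all eligible genes. Elongation and nascent-chain factors had 5 of 17 members (29.4%), TPT1, EEF1A1, PABPC1, EEF1D and SERBP1. Cytoskeletal genes other than actins and keratins had 10 of 46 (21.7%), among them TMSB10, MYL12A, TUBA1C and the actin-severing DSTN and CFL1. Glycolysis, lactate and glucose-linked genes had 5 of 26 (19.2%), which were SLC2A3, PGAM1, LDHB, SLC16A1 and MDH1. Nucleolar and nuclear RNA-binding genes had 9 of 48 (18.8%), with NPM1, HNRNPAB, SFRS2 (current symbol SRSF2) and the histone chaperone SET next after HNRNPA3. Mitochondrial genes had 6 of 40 (15%), small GTPases and signalling adaptors 7 of 48 (14.6%), folding and secretory genes 8 of 62 (12.9%) and redox genes 5 of 39 (12.8%). The lowest shares among role lists were 2 of 25 (8%) for histones and chromatin, which were the heterochromatin protein CBX3 and the replication clamp PCNA, 2 of 29 (6.90%) for ubiquitin and degradation, which were RBX1 and the cathepsin CTSL2, and 2 of 30 (6.67%) for lipid handling, which were the sterol enzyme HMGCS1 and the acyl-CoA ligase ACSL3. These lists were written for abundant gene classes, so the shares describe the lists and are no sign of enrichment.

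Markers of the blastocyst lineages were split. Of 28 trophectoderm markers on the array, 4 (14.3%) were among the 150: PLAC8, the tight-junction claudin CLDN4, the endocytic adaptor DAB2 and the transcription factor TFAP2C. The mean ranks of PLAC8 were 199 in glucose and 246 in control. Those of TFAP2C were 330.5 in glucose and 410 in control. Outside the 150, PLAU ranked 590 in glucose and 814 in control, and GATA2 1340 in glucose and 1541 in control. The median control rank of this list was 5070. The defining factor CDX2 was far dimmer on its probe, at a mean rank of 24196 in glucose and 25054 in control, above the negative controls in 4 of 8 glucose channels and 6 of 8 control channels. Of 27 inner cell mass and primitive endoderm markers, FN1 alone (3.70%) was a member, and the median control rank of the list was 7273. HNF4A ranked 1385 in glucose and 1025 in control, and KLF4 1388 in glucose and 1539 in control. NANOG, of the pluripotent inner cells, ranked 2236 in glucose and 1632 in control, while SOX2 ranked 23123 in glucose and 24323 in control. POU5F1 ranked 3958 in glucose and 3922 in control.

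No marker of cells that could have been carried into the pools was among the 150. The list of 25 cumulus and granulosa markers also held collagens and other matrix genes, which are not particular to those cells. Its best was the collagen COL1A2, at 3360 in glucose and 3856 in control. The summed signal of that list was 5964 to 39600 units over glucose channels and 5954 to 11390 over control channels. Its median ratio of glucose over control (log2) was 0.25, with 0.19, -0.04, 0.62 and -0.02 in replicates 1 to 4. Of its 21 markers tested, 18 were above 0 and 3 below, namely CYP19A1 at -0.22, COL1A1 at -0.07 and NR5A1 at -0.05. LUM averaged 1.91, with 1.79, -0.23, 4.53 and 1.53 in replicates 1 to 4. VIM averaged 1.32, with 2.26, 0.30, 2.84 and -0.12. IGFBP7 averaged 1.18, with 2.06, -0.10, 2.53 and 0.23. The inhibin subunit INHA stood at 0.08 and the hormone receptor FSHR at 0.14. AMH, FOXL2, HSD17B1 and LHCGR were dim, at ranks of 34017 to 39840 in glucose and 34050 to 39963 in control. Which cells gave the signal of this list, and its part in the ratios below, was not tested. The best of 10 blood markers, PTPRC, ranked 13255 in glucose and 13120 in control, and HBB ranked 21116 in glucose and 21255 in control. The best of 23 oocyte-stored transcripts was the cyclin CCNB1, at 945.5 in glucose and 1022 in control. CCNB1 does not stand for its list, whose median control rank was 21103. The oocyte growth factor GDF9 ranked 38619 in glucose and 39208 in control. Whether the CCNB1 signal came from stored RNA was not tested.

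Membership of the bright end was shared between glucose and control; in the control channels it follows largely from the choice of genes. Of the 150 genes, 149 stayed within the first 1000 probes in all 8 glucose channels, 146 in all 8 control channels, and 145 in all 16. In the control channels 52 genes stayed within the first 438 probes, the top 1%, on every array. The same rule applied to the glucose channels gave a first 150 that held 142 of these genes, and all 150 lay in its first 200. In glucose 75 of them had the better mean rank, and in control the other 75. The glucose and control channels sit on the same spots of the same arrays, so this likeness is partly that of the spot.

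**Figure D1:**
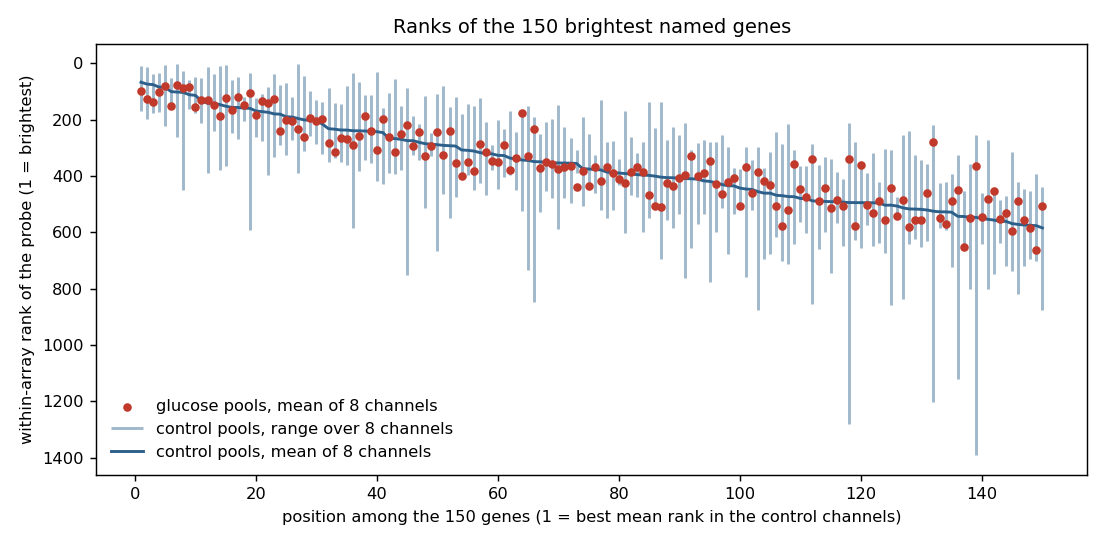
Within-array ranks of the 150 genes, ordered by mean rank in the control channels (x axis, position; y axis, rank, 1 at the top). Red points are the mean of the 8 glucose channels, the dark line is the mean of the 8 control channels, and the pale bars run from the lowest to the highest control rank; the longest bar, MAD2, reaches 1391, and all 149 pairs of neighbours overlap.

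The order within the 150 was much looser than the membership. A gene's rank spanned a median of 275 places over the 8 control channels, with 64 as the lowest span and 1136 as the highest. The range of every one of the 149 pairs of neighbouring genes overlapped, and 57 genes had ranges that overlapped that of PDIA6. The median span was 224 for the first 50 genes and 328 for the last 50. The median gap was 57.5 places between the 2 dyes of the same control pool and 94.25 places between different pools in the same dye, so pools differed more than dyes did. A dye effect was nonetheless called for 17 of the 150 in the fit over 8 arrays, all brighter in Cy5, where 12.2% of all probes tested were called.

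The narrowest spans belonged to UQCRQ, a small subunit of respiratory complex III, at 64 places, HNRNPAB at 80, AP2M1 at 83, CHP (current symbol CHP1), a calcium-binding protein, at 84, and the splicing factor SF1 at 86. UQCRQ ranked 521, 581, 477 and 587.5 in the glucose pools, against 503.5, 489, 516 and 518.5 in the control pools. The widest spans were those of MAD2 at 1136, MAD2L1 at 1067, PRDX1 at 982, EPCAM at 792 and NPM1 at 663. MAD2 is listed by RefSeq as a synonym of MAD2L1, a spindle checkpoint gene, so the pair is 1 gene on 2 probes and the 150 symbols are 149 current genes. PRDX1 removes hydrogen peroxide, EPCAM is an epithelial adhesion molecule and NPM1 is the main nucleolar protein.

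All 5 of the widest spans came from the control pool of replicate 4. MAD2L1 ranked 376.5, 399, 386 and 197.5 in the glucose pools, against 334.5, 264, 309.5 and 1069 in the control pools. PRDX1 ranked 302, 204.5, 386.5 and 218.5 in the glucose pools, against 261.5, 363.5, 370 and 1105.5 in the control pools. In both genes the control pool of replicate 4 was the dimmest of the 8 pools by a wide margin. Of the 150, 31 were dimmer by over 100 places in control pool 4 than in any other control pool, against 4, 5 and 2 for control pools 1 to 3. In glucose the corresponding counts were 2, 6, 13 and 10 for pools 1 to 4. The brightest control rank of a gene lay in control pools 1 to 4 for 20, 30, 40 and 60 genes.

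The last places of the 150 were close calls. PPP2CA, a phosphatase subunit, had a mean control rank of 574, followed by SF3B1 at 575, TMEM9B at 576 and the malate dehydrogenase MDH1 at 584. PARP1, a DNA repair enzyme, had the same mean rank as MDH1 and stood just outside, because ties were broken by probe name. RHEB at 586, GNB2L1 at 590.5 and GNG5 at 592 came next outside.

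The brightest probe of a gene was often not matched by its other probes. Of the 150 genes, 61 had 1 probe and 89 had between them 164 others, whose median rank was 8201, against 20115 for all named probes. For 11 genes another probe also ranked in the first 1000, and for 32 the best other probe ranked within the first 4379, while for 57 all others lay past that rank. In 24 genes at least 1 other probe lay past rank 21897, the middle of the array. PPIA had others at 188 and 196, and 6 of the 10 other probes of MYL6 ranked between 255 and 767.5. By contrast TXNRD1 had its other probe at 14461, ATP1B3 had others at 37207 and 41793, and ATP6V1D, a subunit of the lysosomal proton pump, ranked 386 on its member probe and 43172 on its dimmest. The probes' sequences and target regions were not analysed here.

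**Figure D2:**
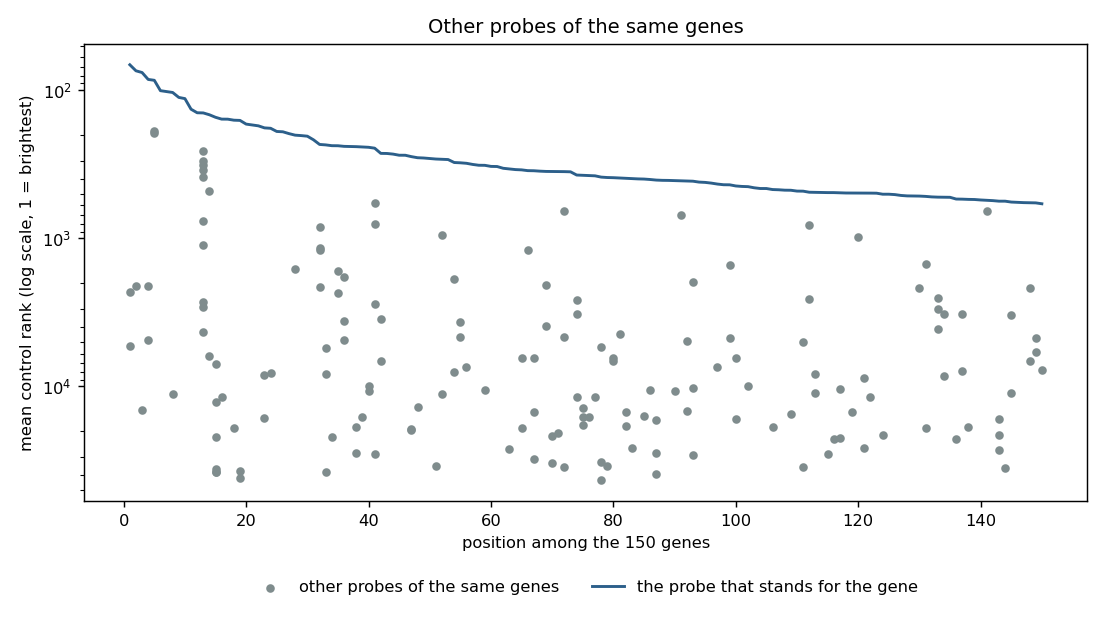
Mean control rank on a log axis (y, 1 at the top) of every probe of the 150 genes, by position of the gene (x). The line is the probe that stands for the gene and the grey points are its 164 other probes, from 188 for PPIA to 43172 for ATP6V1D.

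Whether glucose changed these bright transcripts was asked with log2(glucose/control), averaged over the 2 dye-swapped arrays of a replicate and then over 4 replicates, and positive where glucose pools were brighter. A probe was tested with limma against 0 over all 32935 probes that passed a filter on signal, and all 150 genes passed it. None of the 150 passed an adjusted p of 0.05, and the share of all probes that did was 0%. The lowest adjusted p among the 150 was 0.977. Without adjustment 1 gene was higher and 1 lower at p under 0.05, where the shares over all probes were 1.73% and 0.641%. The control signal that chose the genes is also the denominator of the ratio, so the directions of these ratios are given as a description only.

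The ratios of the 150 were small. Their median was -0.03, with replicate medians of -0.03, -0.08, 0.04 and 0.01 (SD 0.05, n = 4), and the median of 12589 named genes tested was 0.00. The ratios ran from -0.25 to 0.47. Within 0.25 of 0 lay 142 genes (94.7%), against 92.5% of the named genes tested and 94.1% of all probes tested. There were 65 genes above 0 and 85 below, that is 43.3% above, against 51.9% of the named genes tested. When genes were chosen by the glucose channels instead, the median was -0.01, and by both channels -0.02. Above 0 in all 4 replicates were 2 genes, TMSB4X and ATP6V1D, where 5.2% of all probes were, and below 0 in all 4 were 3 genes, CYP51A1, PDXK and CHP, where 5.36% were.

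Replicate 4 spread the ratios most. The SD across the 150 genes was 0.19, 0.20, 0.24 and 0.59 in replicates 1 to 4, and across the named genes tested it was 0.23, 0.22, 0.29 and 0.49. In replicate 4 alone 9 genes were at least 2-fold brighter in glucose and 3 at least 2-fold dimmer, where 3.14% and 1.32% of all probes were. In replicate 3 none was 2-fold brighter and 1 was 2-fold dimmer, where 0.492% and 0.161% of all probes were, and in replicates 1 and 2 there was no such gene. Over all probes the shares brighter and dimmer were 0.376% and 0.0759% in replicate 1, and 0.128% and 0.0395% in replicate 2. The correlation across the 150 between the 2 dye-swapped arrays of a replicate was 0.38, 0.11, 0.39 and 0.82 in replicates 1 to 4. It is a description across genes, which share arrays and are not independent. Between replicates it ran from -0.46 to 0.30.

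**Figure D3:**
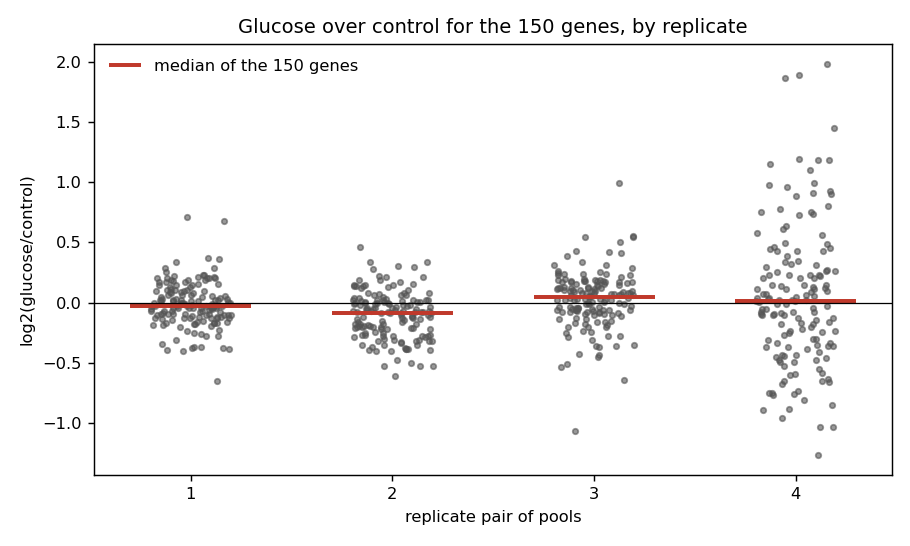
log2(glucose/control) of each of the 150 genes (points) in each of the 4 replicates, with the median as a red bar; points are spread sideways for legibility. The medians lie between -0.08 and 0.04, and the points of replicate 4 spread widest, from -1.27 for MYL12A to 1.99 for MAD2.

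In 6 of the 8 highest mean ratios replicate 4 gave the highest value. PRDX1 had -0.16, 0.19, -0.00 and 1.86 in replicates 1 to 4, a mean of 0.47 ± 0.94 (SD, n = 4). MAD2 had -0.10, -0.38, -0.08 and 1.99, and MAD2L1 had -0.12, -0.39, -0.10 and 1.89, so the 2 probes of this gene ran together. In replicate 4 the 2 dye orientations gave 1.72 and 2.01 for PRDX1, and 1.72 and 2.06 for MAD2L1. The RNA-binding protein YBX1 averaged 0.32 ± 0.47, with 0.98 in replicate 4, and the tight-junction scaffold TJP1 averaged 0.29 ± 0.46, with 0.96 there. CSRP2, a LIM-domain protein of the cytoskeleton, averaged 0.29 ± 0.36 and was above 0 in 3 of 4 replicates.

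LAPTM4B and TMSB4X were the exceptions. LAPTM4B, a lysosomal membrane protein, had 0.37, 0.29, 0.99 and -0.18, a mean of 0.37 ± 0.48. Its glucose pools ranked 144, 251.5, 23 and 285, against control pools at 369.5, 434, 348.5 and 221.5. The glucose pool was thus the brighter in 3 of 4 replicates and the groups overlapped. TMSB4X, which sequesters actin monomers, had 0.71, 0.22, 0.12 and 0.15, a mean of 0.30 ± 0.28, with an unadjusted limma p of 0.052 and an adjusted p of 0.977. Its glucose pools ranked 152, 380.5, 322 and 594.5, against control pools at 500.5, 475, 355.5 and 646.5. The glucose pool of TMSB4X was the brighter in each replicate, though the groups overlapped.

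The 8 lowest mean ratios were those of RBMX, CKB, PDCD6, PRDX6, CSTB, PSAT1, MYL12A and CS, between -0.25 and -0.21. RBMX, an RNA-binding protein, averaged -0.25 ± 0.65 and CKB -0.24 ± 0.57, each with -1.03 in replicate 4. MYL12A, a myosin regulatory light chain, had -0.11, -0.01, 0.51 and -1.27, a mean of -0.22 ± 0.75. PRDX6, another peroxidase, had 0.02, -0.08, 0.03 and -0.88, so its member probe lay on the other side of 0 from PRDX1 in replicate 4. The mean of that probe was -0.23, while the 4 other probes of PRDX6 had means between -0.06 and 0.08. CS, citrate synthase, had -0.26, -0.39, 0.15 and -0.33, a mean of -0.21 ± 0.25, and PSAT1, of serine synthesis, averaged -0.22 ± 0.36. PDCD6, a calcium-binding protein, averaged -0.24 ± 0.42. In replicate 4 the 2 dye orientations gave -2.44 and -0.09 for MYL12A, -1.65 and -0.41 for RBMX, and -1.47 and -0.29 for PRDX6. The 2 orientations were closer for CKB at -1.19 and -0.87, CSTB at -0.91 and -0.86, and PDCD6 at -0.86 and -0.84. In none of the 8 was the ratio below 0 in all 4 replicates.

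**Figure D4:**
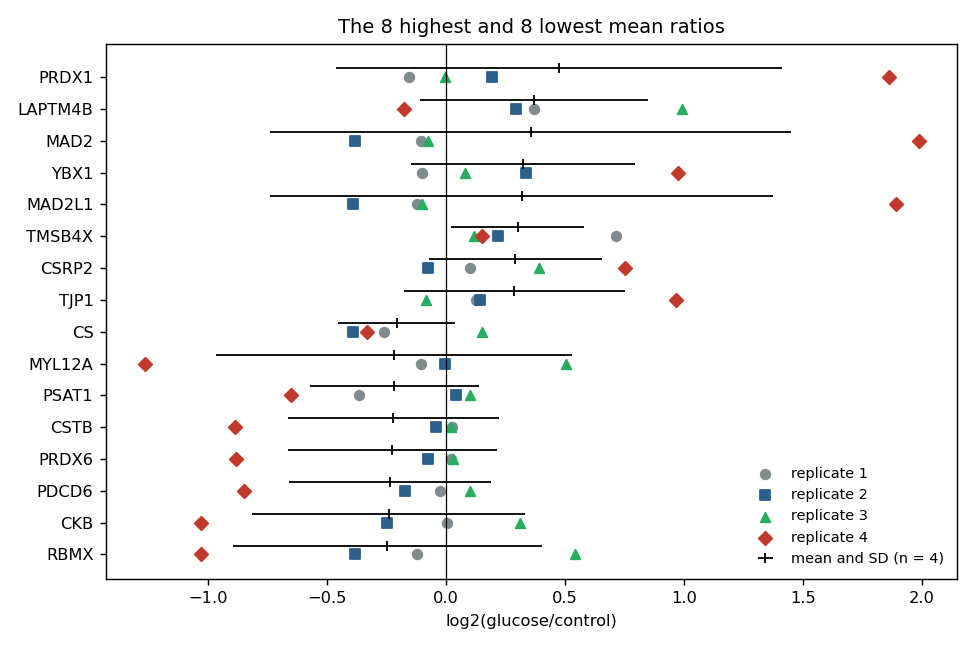
log2(glucose/control) in each replicate (coloured symbols) for the 8 genes of highest and the 8 of lowest mean ratio, with the mean and its SD over 4 replicates as a black cross-bar drawn just above. Red diamonds, replicate 4, lie farthest from 0 in most rows, from -1.27 for MYL12A to 1.99 for MAD2.

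The 2 genes past the unadjusted threshold had modest ratios. CYP51A1, a demethylase of cholesterol synthesis, had -0.16, -0.28, -0.20 and -0.05, a mean of -0.17 ± 0.09, with an unadjusted limma p of 0.0316 and an adjusted p of 0.977. SLC25A5 had 0.21, -0.00, 0.20 and 0.26, a mean of 0.17 ± 0.12, with an unadjusted limma p of 0.0499 and an adjusted p of 0.977. HMGCS1, upstream of CYP51A1 in the same pathway, had -0.09, -0.21, -0.51 and 0.48, so it was not below 0 in replicate 4. Of the glucose-linked genes, SLC2A3 averaged -0.04 ± 0.11, PGAM1 0.10 ± 0.12, LDHB 0.06 ± 0.57 and SLC16A1 -0.17 ± 0.33. MDH1 stood at 0.19 ± 0.31.

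No role group stood apart from 0 by more than the spread between its replicate medians. Chromatin, nucleus and cell cycle had a median ratio of 0.08, with replicate medians of -0.05, -0.16, -0.05 and 0.34 (SD 0.22). Of its 11 symbols 8 were above 0. These count MAD2 and MAD2L1, which are 1 gene and were above 0 in replicate 4 only. Protein folding and degradation had -0.08 (SD 0.11), with 6 of 9 below 0. Protein synthesis and ribosome assembly had -0.07 (SD 0.15), with 12 of 15 below 0, where 85 of the 150 were, among them TPT1 at -0.10 and EEF1A1 at -0.07. Redox and metal handling had -0.07 (SD 0.14), where GLRXL and TXNRD1 both stood at -0.20 and FTH1, the ferritin heavy chain, at 0.03. Signalling stood at -0.06, adhesion at -0.05, RNA binding at -0.03, energy metabolism at -0.02, sterol and lipid at -0.02, membrane traffic at -0.01 and cytoskeleton at 0.01.

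**Figure D5:**
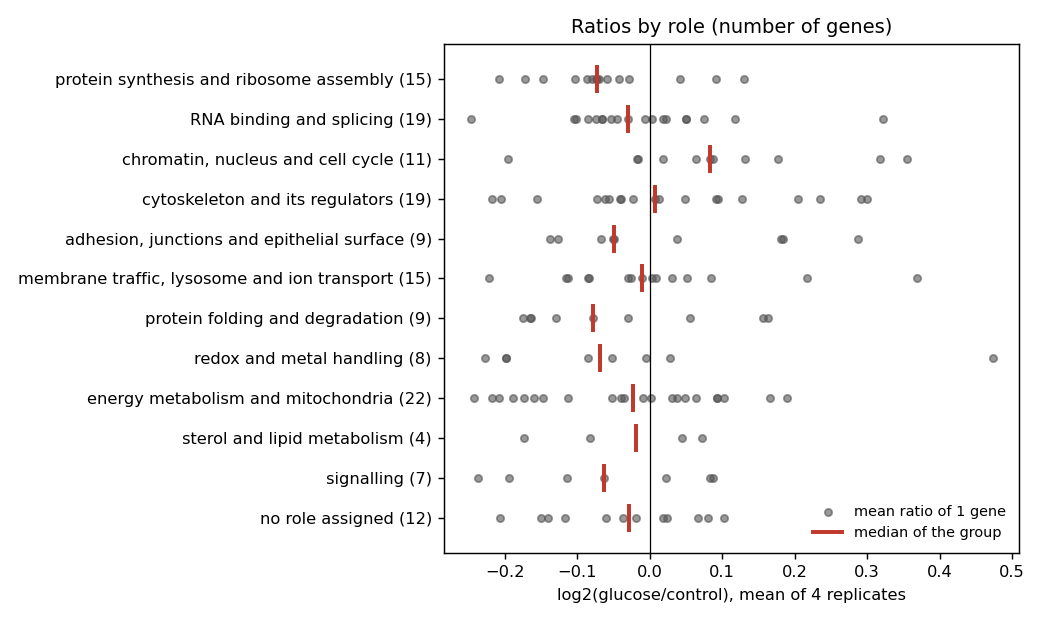
Mean log2(glucose/control) over 4 replicates of each of the 150 genes (points), by role group, with the group's median as a red bar and the number of genes in brackets. Group medians lie between -0.08 and 0.08, and PRDX1 in the redox group lies farthest from 0 at 0.47.

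Other probes of the same genes often gave a different ratio. Of 151 other probes tested, 71 had the sign of the member probe. Above 0 were 107 (70.9%), against 50.2% of all probes tested. The median of the 151 other probes was 0.08. In replicate 4 their median was 0.32, against 0.01, 0.03 and -0.07 in replicates 1 to 3, and without replicate 4 it was -0.02, with 61 above 0. This comparison was chosen after its values were seen. MYL6 stood at -0.04 on its member probe and between 0.06 and 0.49 on its 10 others, and between 0.04 and 0.23 on those without replicate 4. PDIA6 stood at -0.16 on its member probe, against 0.40 and 0.13 on its others, and TPM4 at -0.20 on its member probe, against 0.18 on the brighter of its others. The probes agreed closely for TMSB4X, at 0.30 on its member probe and 0.28 on its other, for CSRP2, at 0.29 and at 0.29 and 0.32, and for SLC25A5, at 0.17 on both. CYP51A1 stood at -0.17 on its member probe, against -0.20 and 0.07 on its others. Among the genes of lowest mean ratio, CSTB stood at -0.14 on its other probe, CKB at 0.07 and PDCD6 at 0.15. MYL12A had others at 0.24, -0.09 and 0.02, CS at 0.09, -0.42 and -0.02, and RBMX at 0.07 and 0.05 on those tested. YBX1 and EPCAM had other probes at 0.02 and -0.10, against member probes at 0.32 and 0.18. Those other probes were dim, at mean control ranks of 15337 for YBX1 and 22538 for EPCAM. The other probes that agreed ranked 978 for TMSB4X, 819 and 2589 for CSRP2, and 655 for SLC25A5. What part probe brightness had in this was not tested.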

How the data were processed

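Total RNA from pools of blastocysts was amplified in 2 rounds, labelled with Cy3 or Cy5 and hybridised to 8 two-channel Agilent arrays, per the labels' protocols. The deposited scanner tables give spot intensity and local background in both channels, not normalized, per the file headers. The submitters' processing notes name limma; scanner software and genome build are not given in the sources used here. A further file, the authors' deposited series table, holds a score per probe and array of unstated unit. It was read as log2 glucose divided by log2 control signal, which is inferred (correlation with scanner ratios 0.934 to 0.996, column medians 0.998 to 1). Its normalization and centring stay unknown, and it served only as an alternative.

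The array annotation names 21790 probes by 1 symbol each and leaves 22004 unnamed. Of the 150 symbols 130 are current in RefSeq, 16 are synonyms of another current symbol and 4 are neither or ambiguous; what FAS means on this array is unsettled. Under current symbols 2 genes, ATPIF1 and MP68, would fall under an excluded prefix. Prefixes were matched without regard to capitals, a choice made after a ribosomal symbol in lower case was seen among the brightest genes, and ties were broken by probe name.

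Analysis used R 4.3.3 and limma 3.58.1: normexp (offset 50) on mean intensity and median background, then loess within arrays with control spots at weight 0. The 4 replicate ratios were tested against 0 with lmFit and eBayes, two-sided, and adjusted by Benjamini-Hochberg. Probes entered the test if, on 4 or more of the 8 arrays, at least 1 channel exceeded the mean plus 2 SD of 153 negative control spots. Arrays of the same number in the 2 array sets were taken as dye swaps of the same pools, which the labels do not state. Their correlations after removal of the dye effect were 0.734, 0.773, 0.847 and 0.912, each above the highest with any other number (0.215, 0.161, 0.215 and 0.0642). No source used here says that pools came from different ovary batches, so p-values measure only the spread between these pools. The number of arrays limits the precision.

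The fit was tested on simulated data for this comparison, with 200 of 32935 probes changed and replicates of equal spread. It recovered 40% of those changed 1.5-fold and 64% of those changed 2-fold. Of those changed 3-fold it recovered 82% and of those changed 4-fold 78%, and it made 4 false calls. The simulated spreads were drawn from all probes tested. Between replicates the median SD was 0.27 for the 150 and 0.16 for all probes tested. The recovered shares therefore cannot be carried over to the 150.

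The 150 genes, the 17 lists and the alternatives were chosen with earlier results of these data known. Named genes are the 30 of best rank, up to 5 per role list, the 8 highest and 8 lowest ratios, the 5 widest and 5 narrowest rank spans and the 4 on each side of the threshold; others were named after their values were seen. Alternatives changed the intensity, background, normalization, filter, array set, channel or replicates. Sequence features were not analysed here.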

Additional observations from a re-analysis of the deposited data

Results flagged for a closer look

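Of 131 sets of 4 values examined, 16 held 1 value far from the other 3, and 14 of the 16 lay in replicate 4. Chance alone would give about 1 in 20 independent sets, but that rate is no fair comparison here, since several genes were named for extreme ratios or wide rank spans and the groups contain some of the same genes. On the log2(glucose/control) scale, 7 probes of 6 genes had a replicate 4 far from the rest, MAD2 and MAD2L1 being the same gene: MAD2 at 1.99, MAD2L1 at 1.89, NPM1 at 1.19, FTH1 at 0.90, VDAC2 at 0.57, PRDX6 at -0.88 and CSTB at -0.89. In the other replicates NPM1 lay between -0.29 and -0.10, FTH1 between -0.31 and -0.20, and CSTB between -0.04 and 0.02.

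Medians of gene groups showed the same. In replicate 4 the sterol and lipid group of the 150 stood at 0.35, against -0.16 to -0.11 in the others. Over all members on the array, also in replicate 4, the list of ubiquitin and degradation genes stood at 0.29, histones and chromatin at 0.26 and nuclear RNA-binding genes at 0.16. RNA binding and splicing within the 150 stood at 0.13 in replicate 3, against -0.08 to -0.04.

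Pool ranks were apart in the same way for 4 genes. The glucose pool of replicate 1 ranked FN1 at 156.5, against 41 to 60.5 in the other glucose pools. The control pool of replicate 4 ranked PDIA6 at 92, against 56 to 60.5 in the other control pools, PPIA at 150, against 60 to 69, and TPT1 at 279, against 41 to 51.5.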

How the results depend on the processing

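The membership was recovered under the rank alternatives tried: 141 to 149 of the 150 genes were chosen again, with 144 by median spot intensity, 142 with the control pool in Cy5 only, 144 in Cy3 only and 147 under current symbols. Leaving out a replicate shared 141 to 145 genes, the fewest without replicate 4. The number of genes within the first 1000 on every control channel was 146 and became 150 without replicate 4. No alternative called a probe or a gene of the 150 at an adjusted p of 0.05, and each fit to 4 replicates or fewer had a lowest adjusted p of 0.861 or more. With no replicate block, that is with the 8 arrays taken as separate, 0 probes were called, with a lowest adjusted p of 0.0657, and 13 of the 150 and 2716 of all probes passed an unadjusted p of 0.05. At that unadjusted threshold 2 of the 150 passed as reported, and 0 to 17 with 1 replicate left out, 17 being the count without replicate 4. The median ratio of the 150 ran from -0.06 with median centring in place of loess to 0.02 with the authors' deposited values, and from -0.03 to 0.00 with 1 replicate left out, turning above 0 without replicate 2. It was -0.03 without the 33 genes whose other probes all rank past 10948.5. Of 1376 values of single genes under an alternative, 7 moved by more than the spread between replicates, 5 of them with median spot intensity (TMEM9B to -0.42, SF1 to -0.26, MYL6 to -0.19, PTTG1IP to 0.09, TPM4 to 0.06). The median of the adhesion group was 0.08 without replicate 1. Signals near the top of the scanner's range and 4 replicates with 1 of wide spread limit what these ratios can show; the causes of these shifts were not tested.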
